A study of Mus musculus with 26 samples.

Results

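The 10 genes described here were chosen for the step between oligodendrocyte precursor cells (OPCs) and newly formed oligodendrocytes (NFOLs). In that step a precursor becomes a committed oligodendrocyte precursor (COP). The genes are Bmp4, Gpr17, Neu4, Bcas1, Enpp6, Fyn, Tns3, Itpr2, Tcf7l2 and Sirt2, taken by name. In the clusters described below, most of them were highest in the cells named after NFOLs, not in those named after COPs. All 10 were found among the 24341 genes of the count tables, each as a single row. Pdgfra, the receptor that marks OPCs, and the summed late myelin genes (Mog, Mag, Mobp, Mal and Opalin) were followed beside them.

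Single sorted cells were loaded on Fluidigm C1 chips with 96 wells each, and their mRNA was counted by STRT-seq, which tags the 5′ end of each molecule with a molecular identifier. The E13.5 brain (6 chips, 287 cells), E13.5 spinal cord (3 chips, 202 cells), P7 brain (2 chips, 107 cells) and P7 spinal cord (5 chips, 220 cells) groups came from untreated Pdgfra-H2BGFP mice on a C57BL/6NJ background. These mice carry a nuclear H2B-GFP knocked in at 1 Pdgfra allele at both ages, and the GFP protein persists into early differentiation after the Pdgfra mRNA falls. The other groups were P7 brain cells of Pdgfra-cre-ERT/RCE mice on a mixed C57BL/6NJ and CD1 background, in which tamoxifen switches on GFP for good in cells that drive Cre from the Pdgfra promoter. Tamoxifen was given at E12.5 (txE12.5, 6 chips, 332 cells) or at P3 (txP3, 3 chips, 187 cells), and the tissue was taken at P7 to P8. In the H2BGFP groups brain means forebrain, while for the traced groups the paper's methods say only brain. All cells were sorted for GFP. The traced and the H2BGFP brains differ in mouse line and in capture experiment, which cannot be told apart.

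Summed over its cells, each of the 25 assigned chips held 56369 to 543779 molecules. The level of a gene is given as CPM, its share of the molecules summed over the cells of a chip on the counts-per-million scale, and the chip was the replicate. Chips of an experiment may hold cells of the same animals, so p-values measure the spread between chips. No pair of the 1514 wells that passed the molecule minimum held identical counts. The P7 brain chips and the P7 spinal cord chips came from different experiments, so region and experiment cannot be told apart at P7.

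A library stood apart from its group. Of the 14 cells on chip 23, labelled P7 spinal cord, 13 were in clusters with markers of vascular and leptomeningeal cells (VLMCs) and none was in the oligodendrocyte lineage. Its summed level of 8 VLMC markers was 16711 CPM, and its 10 OPC markers summed to 248 CPM, where the median P7 spinal cord chip had 89.5 and 4686 CPM. The counts of members past the threshold are given with and without it. Fits for single genes are given with it for P7 against E13.5 spinal cord. For P7 spinal cord against P7 brain they are given without it. The labelled cell type was scarce at E13.5, where 14 of 287 brain cells and 3 of 202 spinal cord cells fell in lineage clusters, against 98 of 107 and 201 of 220 at P7. Microglia markers summed to 0 CPM on the P7 brain chips, with all 6 at 0.

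As background, OPCs that leave the cell cycle pass through a short committed state before they wrap axons. In it the precursor genes fall, a set of transient genes is switched on, and the myelin genes follow. A well known transient gene is Gpr17, a G protein-coupled receptor that is lost again before myelin is made. Secreted BMP4 and nuclear TCF7L2, a transcription factor of the Wnt pathway, have both been studied as signals that set the pace of differentiation. Bcas1 and Enpp6 are used to find oligodendrocytes that are just forming.

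The promoters of 3 members that hold a searched motif are shown as examples. They carry the TCF/LEF core, to which factors such as TCF7L2 bind, and a SOX core, to which factors such as SOX10 bind. Each window runs from 250 bases before to 50 bases after the RefSeq start site on GRCm38.p6, 5′ to 3′, on the strand of the gene (+ in each). Capitals mark the motif, which is CTTTGA for Neu4 and Fyn, whereas for Enpp6 it is ACAATG. The windows are chr1:94020243-94020542 for Neu4, chr10:39369549-39369848 for Fyn and chr8:46986637-46986936 for Enpp6.
Neu4: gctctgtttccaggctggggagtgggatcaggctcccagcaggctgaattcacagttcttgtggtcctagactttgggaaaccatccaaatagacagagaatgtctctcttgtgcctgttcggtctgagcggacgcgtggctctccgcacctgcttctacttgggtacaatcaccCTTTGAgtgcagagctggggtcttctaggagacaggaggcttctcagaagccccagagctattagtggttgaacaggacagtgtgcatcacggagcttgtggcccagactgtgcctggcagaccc
Fyn: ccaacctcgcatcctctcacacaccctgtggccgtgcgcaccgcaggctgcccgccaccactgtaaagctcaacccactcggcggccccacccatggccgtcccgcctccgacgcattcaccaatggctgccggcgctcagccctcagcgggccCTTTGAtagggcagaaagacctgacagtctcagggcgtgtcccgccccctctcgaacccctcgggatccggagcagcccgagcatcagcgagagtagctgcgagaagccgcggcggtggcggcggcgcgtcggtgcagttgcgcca
Enpp6: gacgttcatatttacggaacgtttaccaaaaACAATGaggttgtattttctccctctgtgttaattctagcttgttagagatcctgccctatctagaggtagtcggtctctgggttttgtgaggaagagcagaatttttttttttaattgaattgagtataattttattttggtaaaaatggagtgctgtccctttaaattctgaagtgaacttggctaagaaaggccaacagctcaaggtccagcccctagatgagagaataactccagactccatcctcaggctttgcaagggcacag

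RefSeq windows were read for 8 of the 10 members, 9 windows in all. The TCF/LEF core CTTTGA, which reads TCAAAG on the opposite strand, stood in 2 of the 9, Neu4 and Fyn, and in 16.0% of 32851 promoters. The SOX core ACAATG, on the opposite strand CATTGT, stood in 4 of the 9, Enpp6, Tns3, Tcf7l2 and Sirt2, and in 12.6% of promoters. The second SOX core ACAAAG, on the opposite strand CTTTGT, stood in 1 of the 9, a second Tcf7l2 window, against 18.7% of promoters. The E-box CAGCTG, which reads the same on both strands, and the MYRF letters CTGGCAC, on the opposite strand GTGCCAG, were in 0 of the 9, against 16.3% and 5.01% of promoters. The TCF/LEF core and the opposite strand of the second SOX core differ only in their last letter, so a site counts for 1 of them. These matches are descriptions of the letters, not binding sites.

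The first comparison asked how far the stage genes were already on in Pdgfra/GFP+ cells of the embryo. The E13.5 and P7 chips came from different experiments. Per the paper, embryonic tissue was dissociated mechanically and postnatal tissue with papain. Age cannot be told apart from these. In the brain, 9 of the 10 genes rose from E13.5 to P7 and Tcf7l2 did not pass the test. In the spinal cord all 10 rose, with or without chip 23. Neu4 and Enpp6 are among those counted in both regions, but with no molecule at E13.5 they could only rise. Chip 9 was put in no group, since its label reads P7 spinal cord while its name and experiment number read E13.5 spinal cord. With it added to P7 spinal cord none of the 10 passed (adjusted p from 0.262 to 0.265), at log2 changes of 2.71 to 10.29. Of all genes tested, 7.64% of 5052 were higher and 7.50% lower at P7 in brain, and 8.57% of 6521 were higher in spinal cord. These are all sorted cells summed per chip, so fewer cells of a type and less RNA per cell cannot be told apart, and the 10 OPC markers were also higher at P7 in 10 of 10 cases in both regions. Markers of VLMCs were lower at P7 in 5 of 8 cases in brain (median log2 change -1.64). In spinal cord none of the 8 passed with chip 23 and all 8 were lower without it (median -5.39), and their part in these results was not tested.

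Bmp4, a secreted BMP ligand (chr14:46383520-46390669, - strand, GRCm38), was present in the embryo. Its level on the E13.5 brain chips ran from 23.1 to 186 CPM with a median of 60.5, and the P7 brain chips had 320 and 178 CPM. The groups overlapped by a small margin, since the highest embryonic chip lay above the lower P7 chip. The log2 fold change was 1.92 (SE 0.559, adjusted p = 0.0241 by edgeR's quasi-likelihood test with Benjamini-Hochberg adjustment). On chips 24 and 25, which came from another E13.5 experiment than the rest, Bmp4 stood at 106 and 186 CPM, and the other 4 chips had at most 82.2. Against only those 2 chips the log2 change was 0.87 (adjusted p = 0.325), and the call was also lost without E13.5 chip 2, without E13.5 chip 6 or without P7 chip 21 (1.47, adjusted p = 0.334), with DESeq2 (1.91, adjusted p = 0.0599) and with cells of at least 2000 molecules (1.89, adjusted p = 0.0605). In spinal cord Bmp4 was at 5.52, 30.7 and 53.3 CPM at E13.5 and between 257 and 371 CPM on the 4 P7 chips other than chip 23, which had 106. There the groups did not overlap, and the log2 change was 2.96 (SE 0.517, adjusted p = 0.00376, edgeR).

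Gpr17 (chr18:31942997-31949636, - strand) was low to undetected in the embryo. The E13.5 brain chips had 0, 19.4, 0, 4.04, 95.6 and 248 CPM, the last 2 from chips 24 and 25, and the P7 brain chips had 3858 and 2381 CPM. The groups were far apart, with a ratio of pooled levels of 117 (95% interval 81.1 to 174, counting error only; adjusted p = 8.65e-06, edgeR). Of the 30 embryonic molecules 16 were on chip 25, and the ratio was 235 without that chip and 67.5 without chip 6. In E13.5 spinal cord 1 molecule of Gpr17 was counted among 1116092, against 2090 molecules at P7, a ratio of 2213 (95% interval 397 to 87457; adjusted p = 0.00237, edgeR), or 1135 without E13.5 chip 8. The levels at P7 were 2007, 2158, 2252 and 1701 CPM on chips 10, 11, 12 and 26, and 0 on chip 23.

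Neu4, a sialidase that trims sialic acids from glycans (chr1:94020451-94028334, + strand), and Enpp6, a choline-specific phosphodiesterase of the cell surface (chr8:46986887-47096762, + strand), had no molecule in the embryo. Both were at 0 on all 9 E13.5 chips, which allows up to 2.78 CPM in brain and 2.69 CPM in spinal cord with 3 molecules over the group. The P7 brain chips had 346 and 204 CPM of Neu4 and 383 and 284 CPM of Enpp6. Neu4 was thus at least 103-fold and Enpp6 at least 123-fold higher at P7 in brain, against that floor of 3 molecules. In spinal cord the bounds were at least 66.4-fold for Neu4 and at least 268-fold for Enpp6, with Neu4 between 134 and 216 CPM and Enpp6 between 683 and 851 CPM on the 4 lineage chips. Both genes were past the threshold in both regions (adjusted p from 1.44e-06 to 0.00371, edgeR). With no embryonic molecule they passed the filter on low counts through the P7 chips alone and could only rise. These p-values are therefore not read as support.

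Bcas1, a gene for a cytoplasmic protein of early myelinating cells (chr2:170346991-170427845, - strand), Itpr2, a calcium release channel of the endoplasmic reticulum (chr6:146108299-146502223, - strand), and Sirt2, a tubulin deacetylase of oligodendrocytes (chr7:28766735-28788661, + strand), were low but present at E13.5. Bcas1 went from at most 77.6 CPM to 1238 and 853 CPM in brain. Itpr2 went from at most 74.4 CPM to 452 and 720 CPM. Sirt2 went from 25.9 to 117 CPM on the embryonic chips to 1225 and 1128 CPM at P7. None of the 3 genes overlapped between the ages in brain. The share of all genes that lie apart in this way between the ages was not counted in either region, here or for the other members. Pooled ratios were 83.0 (95% interval 48.7 to 154) for Bcas1, 43.4 (25.1 to 81.2) for Itpr2 and 20.0 (15.2 to 26.5) for Sirt2. The first pair rest on 14 embryonic molecules each, and single chips moved them, Bcas1 to 134 without chip 1 and 44.9 without chip 6, and Itpr2 to 79.1 without chip 24. The spinal cord ratios, with chip 23 in the sum, were 151, 40.9 and 33.9. All 3 genes were past the threshold in both regions, with adjusted p of 1.00e-07 to 2.95e-06 in brain and 0.00206 to 0.0131 in spinal cord (edgeR).

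Fyn, a Src family kinase that relays contact with axons (chr10:39368855-39565381, + strand), and Tns3, a focal adhesion protein (chr11:8431652-8664535, - strand), changed by smaller folds. Fyn was measured on every E13.5 chip, at 92.8 to 185 CPM in brain and at 204, 148 and 86.4 CPM in spinal cord. At P7 it reached 823 and 666 CPM in brain and 1186 to 1688 CPM on the 4 lineage chips of spinal cord, with 53.2 CPM on chip 23. The pooled ratio was 5.92 in brain (95% interval 4.75 to 7.40). Tns3 was at 0 to 58.2 CPM in E13.5 brain and at 195 and 302 CPM at P7, a ratio of 8.06 (5.20 to 12.7). For Fyn in spinal cord the log2 change of 2.95 (adjusted p = 0.0219, edgeR) lost its call without any 1 of the 3 embryonic chips and without P7 chip 11 or chip 12. In those fits the log2 change was 2.68 to 3.23, with adjusted p from 0.0535 to 0.126. Without chip 23 the change of Fyn was 3.33 (adjusted p = 2.87e-09, edgeR). Sirt2 in spinal cord (log2 change 4.63, adjusted p = 0.0131) lost its call without any 1 of the embryonic chips (0.0597 to 0.0914), and Tns3 in brain (3.00) without P7 chip 22 (2.70, adjusted p = 0.0607). With chip 23 left out, all 10 genes stayed higher at P7 in spinal cord, where 17.4% of 6559 genes were.

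Tcf7l2 (chr19:55741820-55933654, + strand) stood apart from the other 9 in the brain. Its E13.5 brain chips had 139, 77.6, 290, 68.6, 95.6 and 109 CPM, and the P7 brain chips had 75.4 and 142 CPM. The ages overlapped throughout, with a log2 change of -0.22 (SE 0.573, adjusted p = 0.834, edgeR), which turned to 0.30 without E13.5 chip 3. In spinal cord the E13.5 chips had 0, 30.7 and 18.4 CPM and the 4 lineage chips at P7 had 245 to 660 CPM, a log2 change of 4.11 (SE 0.829, adjusted p = 0.00688). That call was lost without E13.5 chip 8 (log2 change 4.13, adjusted p = 0.0646). At E13.5 Tcf7l2 was lower in spinal cord than in brain (log2 change -2.71, SE 0.596, adjusted p = 0.0136), and it was the only 1 of the 4 members tested there that passed. Among all genes 1.08% of 5162 were lower and 1.26% higher in embryonic spinal cord. The call was lost without E13.5 spinal cord chip 4 (log2 change -2.33, adjusted p = 0.0656) or chip 8 (-2.66, adjusted p = 0.139). The cells of the embryonic regions differed in kind, with 144 of 287 brain cells in a neural progenitor and neuroblast-like cluster against 4 of 202 in spinal cord, and their part in this difference was not tested.

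The difference between the regions in the change of Tcf7l2 with age was tested as an interaction. It was 4.37 on the log2 scale (SE 1.05, adjusted p = 0.201, edgeR) with every chip, where 0% of 7099 genes passed as higher and 0.0282% as lower, and 4.57 (SE 0.788, adjusted p = 0.00125) without chip 23, where 0.374% of 7224 were higher and 1.22% lower. DESeq2 gave 4.47 (adjusted p = 0.0349), and the other alternatives that passed, each with every chip, were the fit of all 6 groups (0.0321) and the fit without a filter on low counts (0.000509). For Neu4 and Enpp6 the interaction cannot be estimated, since both were at 0 in the embryo. For the remaining 7 members none passed with or without chip 23.

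**Figure D1:**
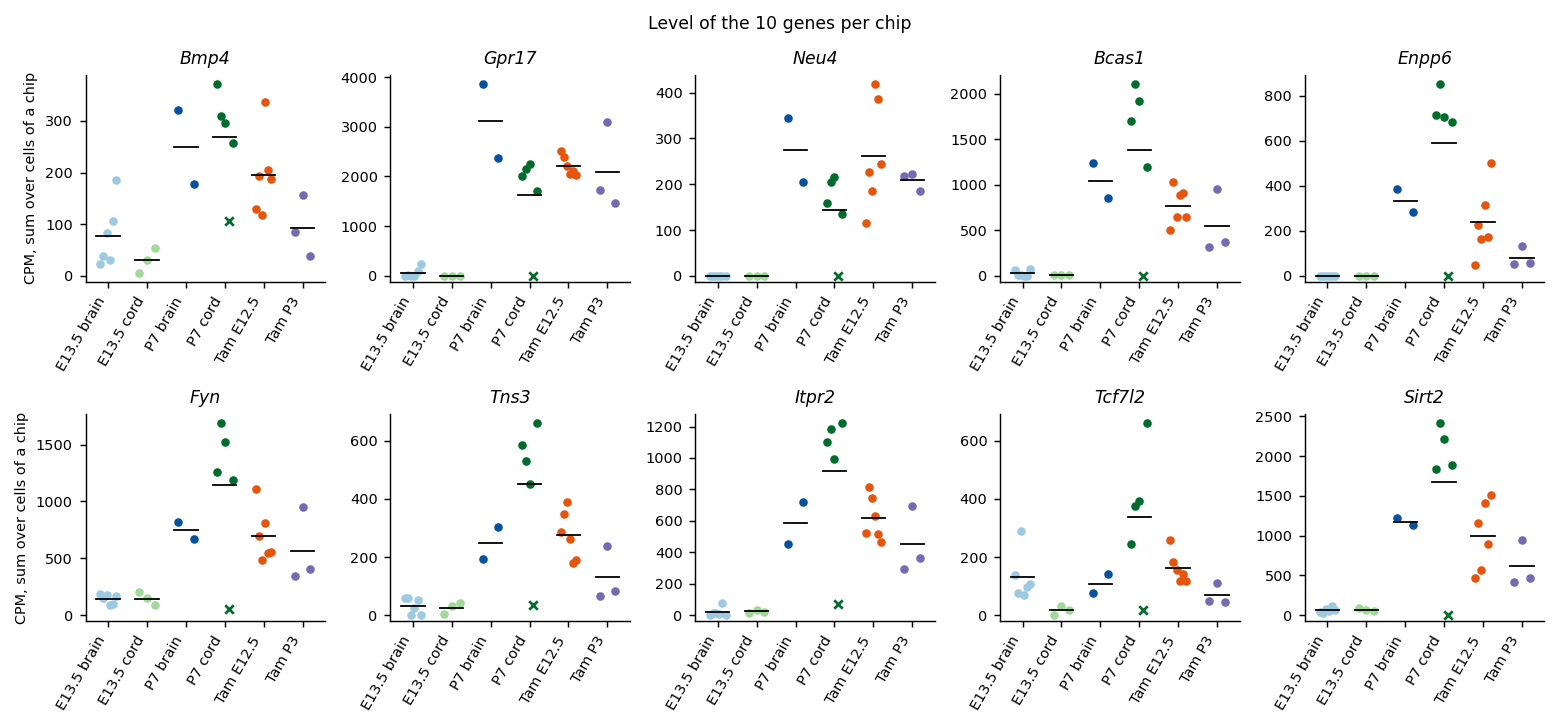
Level of each gene in CPM (vertical axis, linear, a scale of its own in each panel) on each chip, by group (horizontal axis; cord is spinal cord, Tam E12.5 and Tam P3 are the traced brain groups). Points are chips, lines are group means with chip 23 included, and the cross is chip 23; Neu4 and Enpp6 lie at 0 on all 9 E13.5 chips.

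The other genes of the stage rose more often than they fell at P7. Of 25 genes of the committed and newly formed stage that are not members, 14 were tested in brain, where 7 rose and 1 fell, and 20 in spinal cord, where 14 rose and none fell. Their median log2 change was 1.41 and 2.94, against -0.11 and -0.027 over all genes tested and 4.81 and 4.86 for the 10 members. Ust, a sulfotransferase, rose by a log2 change of 3.83 in brain (SE 0.839, adjusted p = 0.00351, edgeR), and Nfasc, a cell adhesion molecule of the node of Ranvier, by 2.37 (SE 0.547, adjusted p = 0.00526). Of the BMP pathway genes beside Bmp4, 11 were tested in brain, where none rose and 1 fell, the BMP target Id1 (log2 change -3.87, adjusted p = 0.0293). Of the Wnt pathway genes beside Tcf7l2, 8 were tested and none passed in either direction. In spinal cord 4 of 13 BMP pathway genes and 3 of 7 Wnt pathway genes were lower at P7 and none was higher, where 8.57% of all genes were lower. Without chip 23 it was 8 lower and 1 higher of the 13 and 4 lower and none higher of the 7, where 17.5% were lower. Of 9 adhesion partners of Fyn, 1 rose in each region, Cntn1, which encodes contactin-1 (4.27 in brain, adjusted p = 3.08e-06). From a wider list of 12 late myelin genes, 4 of the 5 tested rose in brain and 8 of 8 in spinal cord. Of the 12, 8 had a molecule in E13.5 brain and 5 in E13.5 spinal cord. A gene with none there could pass the filter on low counts only through P7 and could only rise. Of 17 regulators of differentiation tested, 9 rose and 3 fell in brain and 11 rose and 3 fell in spinal cord, led in brain by Sox10, a transcription factor of the whole lineage (4.81, adjusted p = 5.85e-06).

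The second comparison set P7 spinal cord against P7 brain. With every chip in the fit no member passed in either direction, and 0% of 4978 genes were higher and 0.0201% lower in spinal cord. Of those genes, 595 had an unadjusted p under 0.05, and DESeq2 called none of the 9 members it tested. Without chip 23, 6 of the 10 members were higher in spinal cord, Enpp6, Fyn, Tns3, Itpr2, Tcf7l2 and Sirt2, and 1 was lower, Gpr17. Of all genes 4.51% of 5457 were then higher and 3.87% lower. With the sums restricted to oligodendrocyte lineage cells, which also leaves out chip 23, 7 members were higher, Bcas1 among them, and Gpr17 was lower, where 5.44% of 5170 genes were higher and 3.77% lower.

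Among the genes that were higher, Tcf7l2 had 75.4 and 142 CPM on the brain chips and 245, 375, 394 and 660 CPM on the 4 spinal cord chips with lineage cells. The log2 difference without chip 23 was 1.90 (SE 0.402, adjusted p = 0.00715, edgeR). Enpp6 had 383 and 284 CPM in brain and 716, 851, 707 and 683 CPM in spinal cord, a log2 difference of 1.13 (SE 0.222, adjusted p = 0.00475). Neither gene overlapped between the regions once chip 23 was set aside. Tns3 had 195 and 302 CPM against 586, 531, 453 and 660 CPM (log2 difference 1.16, SE 0.263, adjusted p = 0.0109). Itpr2 had 452 and 720 CPM against 1104, 1184, 995 and 1220 CPM (0.94, SE 0.217, adjusted p = 0.0122). The receptor channel and the adhesion gene thus had all 4 spinal cord chips above both brain chips.

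Fyn had 823 and 666 CPM in brain and 1257, 1688, 1520 and 1186 CPM in spinal cord (log2 difference 0.91, SE 0.201, adjusted p = 0.00965, edgeR). Sirt2 had 1225 and 1128 CPM against 1843, 2412, 2218 and 1891 CPM (0.82, SE 0.181, adjusted p = 0.00999). Both also lay wholly apart on these chips. The share of all genes that lie apart in this way, as Tcf7l2, Enpp6, Tns3 and Itpr2 also did, was not counted. Bcas1 had 1238 and 853 CPM against 1700, 2106, 1918 and 1197 CPM, overlapped by 1 chip, and did not pass (0.72, SE 0.221, adjusted p = 0.0517).

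The other 3 genes showed another order. Gpr17 had 3858 and 2381 CPM in brain and at most 2252 CPM in spinal cord, a log2 difference of -0.63 (SE 0.189, adjusted p = 0.0462, edgeR). Neu4 had 346 and 204 CPM in brain and 160, 206, 216 and 134 CPM in spinal cord (-0.62, SE 0.292, adjusted p = 0.204). Bmp4 had 320 and 178 CPM against 371, 309, 296 and 257 CPM (0.29, SE 0.279, adjusted p = 0.575). For Neu4 and Bmp4 the regions overlapped, and the difference was not detectable at this depth and number of chips.

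**Figure D2:**
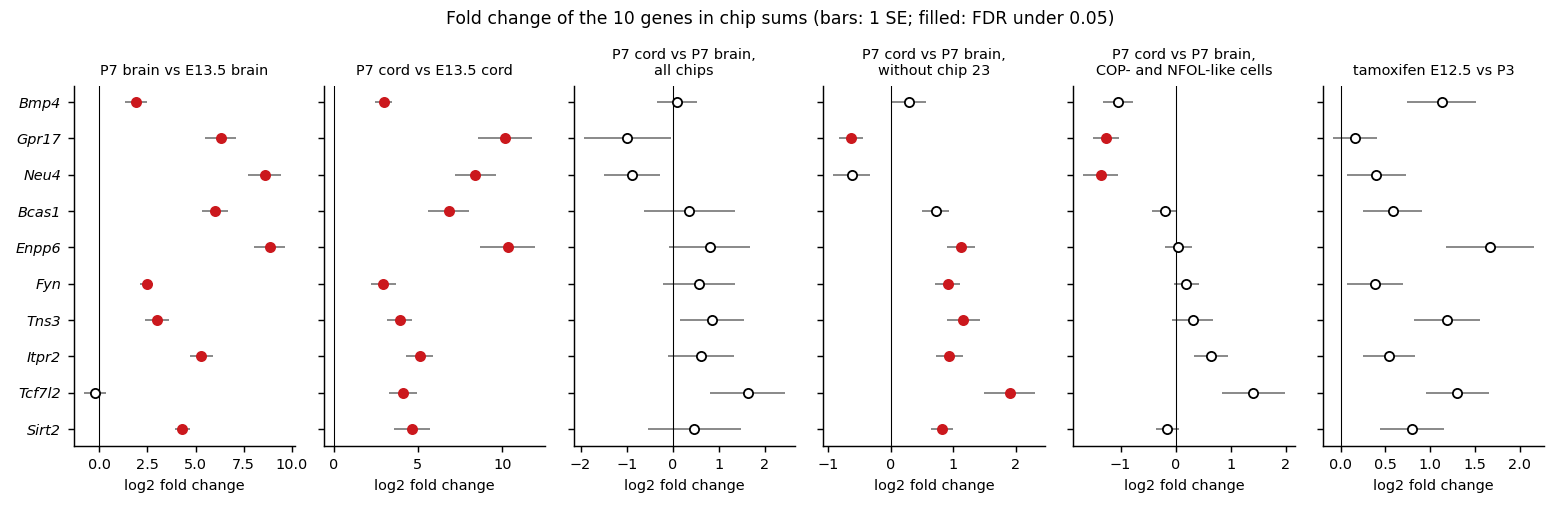
Log2 fold change of each gene (horizontal axis, a scale of its own in each panel) from edgeR on sums per chip, with bars of 1 SE and filled points where the adjusted p was under 0.05. In the all-chips panel of P7 spinal cord against P7 brain no point is filled, and without chip 23 there are 7 filled points, with Gpr17 alone on the negative side.

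Other readouts of the lineage moved with these differences. Without chip 23, Pdgfra was lower in spinal cord (1577 and 1546 CPM in brain, 302 to 495 CPM in spinal cord; log2 difference -1.84, adjusted p = 9.32e-06, edgeR), as were 4 of 10 OPC markers in all. Of 6 VLMC markers tested, 4 were lower in spinal cord (median log2 difference -2.63), where VLMC-like cells numbered 9 of 107 in brain and, chip 23 aside, 1 in spinal cord, and their part was not tested. Of the list of 12 late myelin genes 7 of the 9 tested were higher, led by Mbp, a structural protein of myelin (2.43, adjusted p = 5.31e-06, edgeR). Only 7 of the 12 had a molecule in P7 brain, and the others could only be higher in spinal cord. On chip 10 the 5 late myelin genes named at the start summed to 3567 CPM, of which 85.9% came from 2 cells. Of the stage genes that are not members 5 of 20 were higher and none was lower, led by Nfasc (2.06, adjusted p = 7.62e-05). Regulators gave 2 higher and 1 lower of 16, the BMP pathway 0 higher and 2 lower of 10 (Fstl1, an extracellular glycoprotein, at -2.63 and Id3, a BMP target, at -2.01), the Wnt pathway none of 4 and the adhesion partners of Fyn none of 8. The median log2 difference of the members was 0.86, against 0.005 over all genes tested. The 2 regions differed in their mix of clusters, with 17 COP-like and 9 NFOL-like cells among 98 lineage cells in brain and 56 and 69 among 201 in spinal cord, and the part of this mix in the chip sums was not tested apart from the comparisons within clusters below.

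Cells were clustered with the 10 genes left out of the variable genes, and clusters were named from markers that exclude them. A cluster's score for a list is the median log2 level of its genes over the mean of clusters. Against all clusters the COP-like cluster scored higher for OPC (1.22) than for COP markers (0.907), and a first step named it OPC-like. Against the other lineage clusters it scored -0.403 for OPC, 0.364 for COP and -0.232 for NFOL markers, and the NFOL-like cluster scored higher for COP markers than it did (0.772). COP-like therefore stands for a cluster between the OPC-like and NFOL-like ones, not for the cells with the most COP markers. At a Leiden resolution of 0.5 in place of 1 no cluster was COP-like, and at 2 there was 1. Across the P7 chips the lineage held 419 OPC-like, 103 cycling OPC-like, 116 COP-like and 109 NFOL-like cells. Levels by cluster are a description and carry no test, since the clusters were made from genes of the same cells. Summed over all P7 chips, all 10 members were higher in COP-like than in OPC-like cells, though by mean over chips Tcf7l2 was not so in each group. They then parted into genes that were lower again in NFOL-like cells and genes that were higher still.

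Gpr17, Bmp4 and Neu4 had their highest level in COP-like cells. Gpr17 stood at 1954 CPM in OPC-like, 4837 in COP-like and 2209 in NFOL-like cells. Bmp4 stood at 41.5, 642 and 414 CPM, and Neu4 at 201, 503 and 260 CPM in the same order. Bcas1 was level between the later clusters in this sum, at 397, 2486 and 2473 CPM, but not in each group. From COP-like to NFOL-like cells it went from 3271 to 2424 CPM in P7 brain and from 1867 to 2711 CPM in txE12.5. In spinal cord it went from 2566 to 2408 CPM and in txP3 from 2423 to 2317 CPM. Over chips with at least 5 cells of a cluster, the COP-like level of Gpr17 ran from 3611 to 9222 CPM and that of Bmp4 from 489 to 1131 CPM, so these levels varied widely between chips.

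The other 6 genes were highest in NFOL-like cells. Enpp6 stood at 29.1 CPM in OPC-like, 591 in COP-like and 1347 in NFOL-like cells, and Tcf7l2 at 94.5, 202 and 560 CPM. By mean over chips, Tcf7l2 had 49.2 CPM in OPC-like (cycling included) and 39.2 in COP-like cells of P7 brain, 115 and 81.5 in txE12.5, and 134 and 247 in spinal cord, so by this measure its first step up was not seen in those 2 brain groups. Summed over the cells of a group it was, at 47.9 and 57.7 CPM in P7 brain and 126 and 194 CPM in txE12.5. The P7 brain COP-like value rests on 3 of 17 cells with a molecule, and the txE12.5 mean on 3 chips. Tns3 stood at 123, 411 and 898 CPM and Itpr2 at 473, 1051 and 1578 CPM. Fyn (494, 1649 and 1904 CPM) and Sirt2 (417, 2205 and 3503 CPM) gained most of their rise between the first and second cluster. Pdgfra ran the other way, at 2491, 420 and 265 CPM, and the late myelin genes rose late, at 16.8, 74.7 and 2576 CPM. That last level leaned on 2 cells of chip 10, with 603 and 296 late myelin molecules of the 1036 in its NFOL-like cells (7673 CPM), and the median over 9 chips was 1198 CPM. Cycling OPC-like cells were near OPC-like cells for Gpr17 (1606 CPM), Bcas1 (449 CPM) and Fyn (545 CPM), and lower for Neu4 (95.8 CPM).

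**Figure D3:**
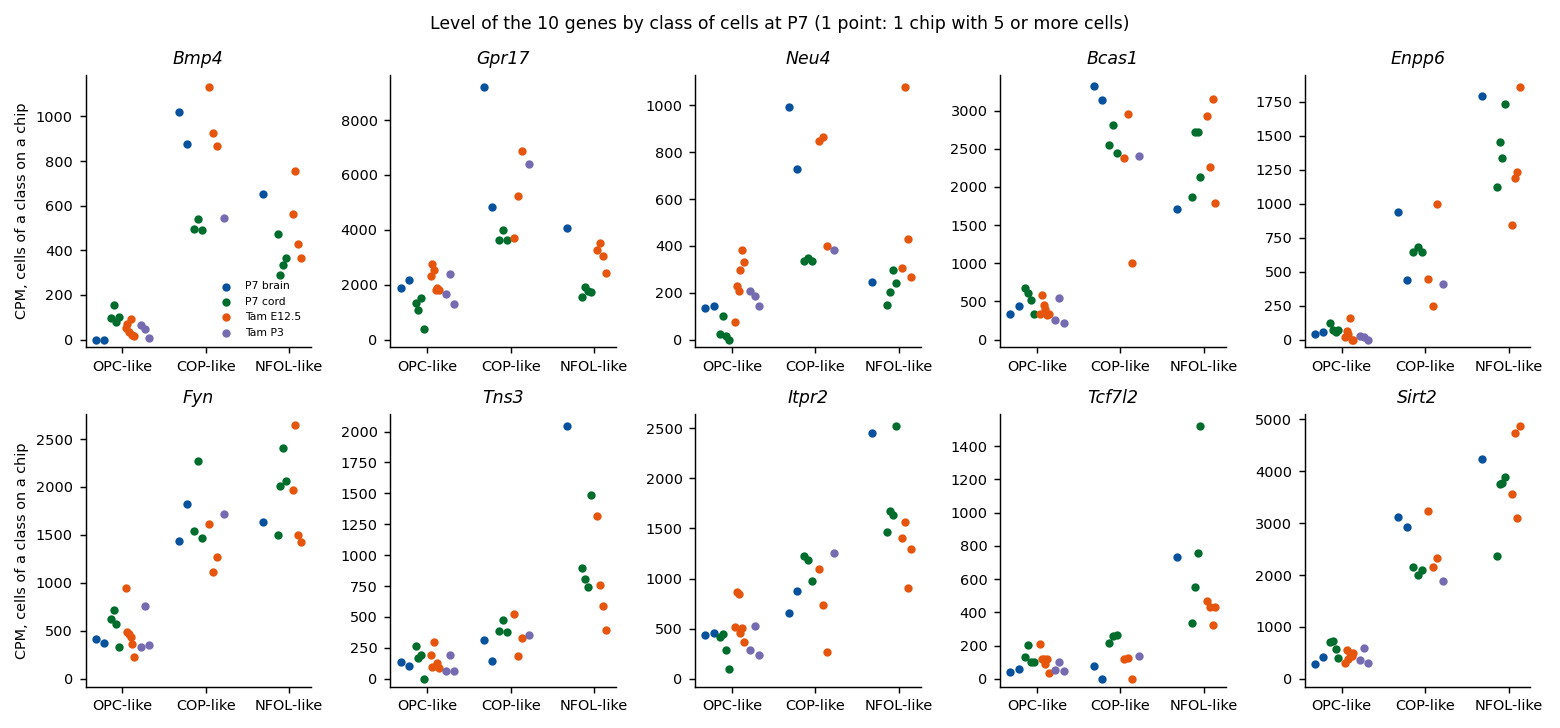
Level of each gene in CPM (vertical axis, linear) in OPC-like (cycling included), COP-like and NFOL-like cells at P7, 1 point per chip with 5 or more cells of the cluster, coloured by group. Gpr17, Bmp4 and Neu4 are highest in COP-like cells on most chips, and Enpp6, Tcf7l2 and Tns3 in NFOL-like cells.

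Within OPC-like cells, cycling ones included, Gpr17 was lower in spinal cord. OPC-like joins clusters 0 and 3, which held 27 and 8 cells on chip 21 and 21 and 7 on chip 22. On chips 10, 11, 12 and 26 they held 7 and 7, 6 and 6, 8 and 3, and 3 and 4. The part of this mix was not tested. Cycling cells were 9 of 72 in brain and 32 of 76 in spinal cord, and Gpr17 was also lower with the cycling cells left out. The brain chips 21 and 22 had 1874 and 2163 CPM and the spinal cord chips 10, 11, 12 and 26 had 1322, 1082, 1513 and 401 CPM. The groups did not overlap, with a log2 difference of -0.92 (SE 0.262, adjusted p = 0.0226, edgeR). Gpr17 was the only 1 of the 8 members tested that passed, where 2.71% of 2509 genes were lower and 3.19% higher. Pdgfra was lower as well, at 2409 and 2363 CPM against 836 to 1086 CPM (-1.35, adjusted p = 6.20e-05). The Gpr17 call was lost with DESeq2 (adjusted p = 0.319), with cells of at least 2000 molecules (0.151), in the fit of all 6 groups (0.0791), and without chip 10 (0.0543), chip 11 (0.109), chip 12 (0.0550) or chip 22 (0.131). The direction held in all of these, with log2 differences from -1.10 to -0.82, and the call was also lost with clusters named in a single step (-0.50, adjusted p = 0.0980).

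Neu4 had 134 and 143 CPM in brain OPC-like cells and 23.8, 101, 12.9 and 0 CPM in spinal cord (log2 difference -1.74, SE 0.856, adjusted p = 0.256, edgeR). Tcf7l2 had 41.2 and 57.3 CPM in brain and 131, 202, 103 and 100 CPM in spinal cord (1.43, SE 0.686, adjusted p = 0.247). Both lay apart without overlap and neither passed, though Tcf7l2 did with clusters named in a single step (1.91, adjusted p = 0.00796). The share of all genes that lie apart in this way in OPC-like cells was not counted. In txE12.5 these cells had 34.9 to 210 CPM of Tcf7l2 and 75.8 to 382 CPM of Neu4, which overlap the spinal cord values. Bmp4 and Enpp6 were too low to be tested with the filter on low counts. With no such filter a member passed as higher in OPC-like cells of spinal cord. Bmp4 had no molecule in the 72 OPC-like cells of the H2BGFP brain, on either chip, and was in 15 of 76 spinal cord cells, at 95.3, 156, 77.6 and 100 CPM by chip. In the traced brain groups Bmp4 was in 19 of 210 such cells of txE12.5 and in 12 of 164 of txP3. Enpp6 had 41.2 and 57.3 CPM in brain and 51.7 to 119 CPM in spinal cord.

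Within COP-like and NFOL-like cells together, Gpr17 and Neu4 were lower in spinal cord, 2 of the 10 members, where 0.651% of 3074 genes were lower and 0.618% higher. Gpr17 had 8680 and 4473 CPM on the brain chips and 2281, 2637, 2611 and 2898 CPM on spinal cord chips 10, 11, 12 and 26 (log2 difference -1.27, SE 0.235, adjusted p = 0.0136, edgeR). Neu4 had 848 and 501 CPM against 215, 253, 315 and 248 CPM (-1.36, SE 0.318, adjusted p = 0.0441). Both brain chips were above all spinal cord chips for each gene, and chip 21 stood highest. Without chip 21 both calls were lost, with log2 differences of -0.52 (adjusted p = 0.393) for Gpr17 and -0.69 (0.465) for Neu4, whose call was also lost with no filter on low counts (-1.15, adjusted p = 0.0800). Bmp4 had 1029 and 771 CPM against 482, 377, 403 and 414 CPM and just missed the threshold (-1.04, SE 0.273, adjusted p = 0.0654). It passed with DESeq2 (0.0306), with cells of at least 2000 molecules (0.0449), without chip 10 (0.0123) and without chip 12 (0.0391). With clusters named in a single step instead of 2, Neu4 turned to 0.34 (adjusted p = 0.833) and Gpr17 was at -0.71 (0.391). Tcf7l2 (1.41, adjusted p = 0.167) and Itpr2 (0.64, adjusted p = 0.265) did not pass. Tcf7l2 passed without chip 10 (1.58, adjusted p = 0.0290) and with no filter on low counts (1.61, adjusted p = 0.0227).

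Different clusters held most of these cells in the 2 regions, COP-like in brain (17 of 26) and NFOL-like in spinal cord (69 of 125). In COP-like cells alone, which were too few on chip 26, Gpr17 had 9222 and 4822 CPM in brain and 3611, 4010 and 3635 CPM in spinal cord. Neu4 had 993 and 731 CPM there against 336, 347 and 336 CPM, and Bmp4 had 1019 and 877 CPM against 497, 542 and 489 CPM. For all 3 genes both brain chips lay above the spinal cord chips within the COP-like cluster, as values with no test, but so they did for 15.5% of 4280 genes with a mean of at least 50 CPM, and below for 17.7%. In NFOL-like cells, of which only chip 22 of the brain held 5 or more, Neu4 had 245 CPM, inside the 148 to 297 CPM of spinal cord, while Gpr17 (4082 against 1548 to 1904 CPM) and Bmp4 (653 against 289 to 474 CPM) lay above it. Sirt2 showed the same order in COP-like cells, at 3109 and 2922 CPM against 2161, 1994 and 2097 CPM, as did Bcas1, at 3318 and 3142 CPM against 2550, 2807 and 2447 CPM. Itpr2, Tns3 and Tcf7l2 showed the opposite order, Itpr2 with 653 and 877 CPM in brain and 979 to 1222 CPM in spinal cord. Tcf7l2 was furthest apart of the 3, with 0 and 78.4 CPM against 215 to 266 CPM. The traced brain chips with enough COP-like cells kept these orders against spinal cord for Neu4, Bmp4 and Tcf7l2. For Gpr17, Sirt2, Bcas1, Itpr2 and Tns3 they overlapped or crossed the spinal cord values. Sirt2 was at 2159 to 3232 CPM in txE12.5 and 1887 CPM in txP3, and Itpr2 at 267 to 1091 CPM and 1258 CPM.

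The third comparison asked whether cells traced from E12.5 and from P3 differed in the stage genes at P7. No member passed, where 0.176% of 5106 genes were higher with tamoxifen at E12.5 and 0.0588% lower; 411 of those genes had an unadjusted p under 0.05, and DESeq2 called none of the members. All 10 log2 differences were positive, with a median of 0.69 against 0.019 over all genes tested. In txE12.5 Enpp6 ran from 50.1 to 502 CPM with a median of 200, and txP3 chips had 50.5, 132 and 55.9 CPM. The groups overlapped, and the log2 difference was 1.67 (SE 0.492, adjusted p = 0.187, edgeR).

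Tcf7l2 ran from 119 to 258 CPM with a median of 148 in txE12.5 and was at 50.5, 112 and 44.7 CPM in txP3, without overlap (log2 difference 1.30, SE 0.352, adjusted p = 0.132, edgeR). How many of all genes lie apart in this way between the tracing groups was not counted. Tns3 ran from 180 to 391 CPM with a median of 274 against 67.3, 238 and 83.9 CPM (1.19, SE 0.366, adjusted p = 0.220), and Bmp4 from 118 to 337 CPM with a median of 191 against 84.1, 157 and 39.1 CPM (1.13, SE 0.385, adjusted p = 0.307). In each of these genes chip 19 was the highest of the txP3 group. Without chip 19 Tns3 passed (1.93, adjusted p = 0.0389), and without txE12.5 chip 5 Enpp6 passed (1.86, adjusted p = 0.0107). With no filter on low counts 3 members passed, Enpp6 (1.65, adjusted p = 0.000298), Tns3 (1.17, 0.0245) and Tcf7l2 (1.27, 0.0450).

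The remaining members were closer between the tracing groups. Gpr17 ran from 2037 to 2520 CPM with a median of 2160 in txE12.5 and was at 1724, 3095 and 1470 CPM in txP3 (log2 difference 0.16, SE 0.243). Neu4 ran from 115 to 419 CPM (median 236) against 219, 223 and 184 CPM. Fyn ran from 483 to 1110 CPM (median 627) against 345, 949 and 403 CPM. For all 3 the groups overlapped. Bcas1, Itpr2 and Sirt2 had medians of 768, 577 and 1027 CPM in txE12.5, and 375, 363 and 470 CPM in txP3, with log2 differences of 0.58, 0.54 and 0.80, none past the threshold. In lineage cells only, no member passed and the smallest adjusted p was that of Tcf7l2 (log2 difference 1.41, adjusted p = 0.0870), where 0.231% of 4329 genes were higher and 0.0231% lower. In OPC-like cells none of the 8 members tested passed, where 0.0550% of 3636 genes were higher. There Itpr2 (0.81) and Tcf7l2 (0.89) both had an adjusted p of 0.999.

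Late myelin genes differed between the tracing groups in 2 of 7 tested cases, among them Mbp (log2 difference 2.08, adjusted p = 0.0339, edgeR). The stage genes that are not members gave none of 15, the regulators none of 15 and the BMP and Wnt pathway genes none of 10 and none of 5. The mix of clusters moved with this contrast, with 29 COP-like and 29 NFOL-like of 268 lineage cells in txE12.5 and 14 and 2 of 180 in txP3. Cells outside the lineage moved with it too, with 48 VLMC-like and 12 endothelial-like of 332 cells in txE12.5 and 7 and 0 of 187 in txP3. None of 7 VLMC markers passed, with a median log2 difference of 1.63 against 0.69 for the members, which was 0.89 in lineage cells only. The part of this mix was not tested. The tracing groups came from different capture experiments, which cannot be told apart from the time of tamoxifen.

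The traced brain chips together were set against the P7 brain chips of the H2BGFP line. No member passed, where 0.0353% of 5666 genes were higher and 0.265% lower; 484 genes had an unadjusted p under 0.05, and DESeq2 called none of the members. Enpp6 had the largest difference (-1.27, SE 0.453, adjusted p = 0.403, edgeR), with 383 and 284 CPM on the H2BGFP chips and 50.1 to 502 CPM over the 9 traced chips. With no filter on low counts Enpp6 passed (-1.24, adjusted p = 0.0409). Bmp4 followed (-0.88, SE 0.390, adjusted p = 0.539). In lineage cells only, no member passed, where 0.0188% of 5325 genes were higher and 0.282% lower. In order of mean level, P7 spinal cord was highest and txP3 lowest among the P7 groups for 8 of the 10 members, also with chip 23 in the mean, while Gpr17 and Neu4 were highest in P7 brain. Between P7 brain and txE12.5 no gene had means further apart than the sum of the 2 SDs.

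Detection per cell was read against VLMC-like cells, which are not of the oligodendrocyte lineage. In the 78 VLMC-like cells of P7 (median 2977 molecules) Gpr17 was found in 23.1%, Sirt2 in 29.5%, Fyn in 25.6%, Bmp4 in 17.9% and Enpp6 in 6.41%. In the 116 COP-like cells (median 3591.5 molecules) the shares were 100%, 94.0%, 93.1%, 68.1% and 65.5%. In OPC-like cells (median 2529 molecules) Gpr17 was in 88.8%, Sirt2 in 53.9% and Fyn in 57.5%. Enpp6, in 5.73% of OPC-like cells, was below the VLMC-like share, so this comparison cannot tell whether it was expressed there. Bmp4 was in 7.40% of OPC-like cells. For Bmp4 the VLMC-like cells are no clean background, since chip 23, with no lineage cells, had Bmp4 in 3 of 14 cells (106 CPM) and Gpr17, Bcas1, Enpp6 and Sirt2 at 0. For the other members they may be no clean background either, since 7 of the 78 cells held 5 or more of the 10 genes. The source of these molecules was not tested.

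The genes were found together. Of the 747 lineage cells at P7, OPC-like cells held a median of 4 of the 10 genes, COP-like cells 8 and NFOL-like cells 9, against 1 in VLMC-like cells. At least 5 genes were found in 32.2% of OPC-like, 95.7% of COP-like and 98.2% of NFOL-like cells, and in 8.97% of VLMC-like cells. With each cell thinned to 1000 molecules the shares were 7.64%, 73.3%, 91.7% and 3.85%. All 10 genes were found in 51 cells, 33 NFOL-like, 15 COP-like and 3 cycling OPC-like.

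By group, at least 5 genes were found in 45.9% of P7 brain lineage cells, 75.1% in P7 spinal cord, 54.1% in txE12.5 and 31.7% in txP3. Thinned, the shares were 26.5%, 57.2%, 25.7% and 9.44%. Spinal cord cells were the deepest (median 4368 molecules, against 2236.5 in P7 brain), and the order of spinal cord first and txP3 last was the same after thinning, while P7 brain and txE12.5 changed places.

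As the number of genes found in a cell went up, Pdgfra was found less often. It was in all 6 cells with none of the 10 genes, in 94.6% of cells with 4, in 68.1% of cells with 7 and in 49.0% of cells with all 10. The late myelin genes went from 0 of those 6 cells to 66.7% of the cells with all 10. Cells with more genes were also deeper, with a median of 1688.5 molecules at 0 genes and 6100 at 10. Thinned, Pdgfra went from 84.1% at 0 genes to 17.3% at 7, so the fall was also seen at equal depth.

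**Figure D4:**
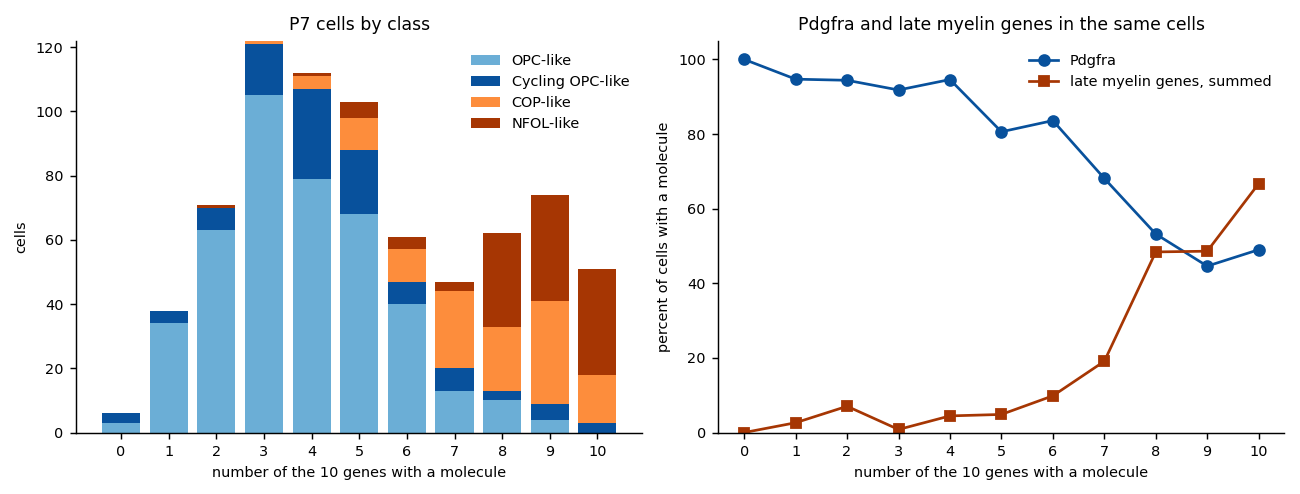
Left, number of P7 lineage cells (vertical axis) by how many of the 10 genes had a molecule (horizontal axis), stacked by cluster name. Right, percent of the same cells with a molecule of Pdgfra or of the summed late myelin genes; Pdgfra goes from 100% at 0 genes to 49.0% at 10, and the late myelin genes from 0% to 66.7%.

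For each of the 45 pairs, both genes were found more often in the cells that held the other, before and after thinning. Cells share a source and differ in depth and cluster, so this is a description with no test. Cells with Enpp6 held Bmp4 in 63.9% of cases, against 10.0% of cells without Enpp6, and after thinning 36.4% against 8.13%. They held Bcas1 in 92.7% against 44.1%, Tns3 in 70.8% against 21.4%, and Gpr17 in 97.7% against 88.8%. Gpr17 was thus near its ceiling with or without Enpp6.

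The share of cells with both genes among cells with either ran from 27.7% for Bmp4 and Gpr17 to 68.2% for Gpr17 and Fyn, with a median of 40.2%. Bmp4 and Enpp6 were both found in 51.5% of cells with either. Pdgfra went the other way, in 50.2% of Enpp6 cells against 89.8% of cells without it, and in 53.4% of Bmp4 cells against 86.8%. Among the 522 OPC-like and cycling cells Bcas1 was in 73.9% of the 46 cells with Bmp4 against 39.1% of those without, and Tns3 in 52.2% against 18.7%, while Neu4 went hardly with Tns3 (21.7% of cells with Neu4 against 21.6%).

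**Figure D5:**
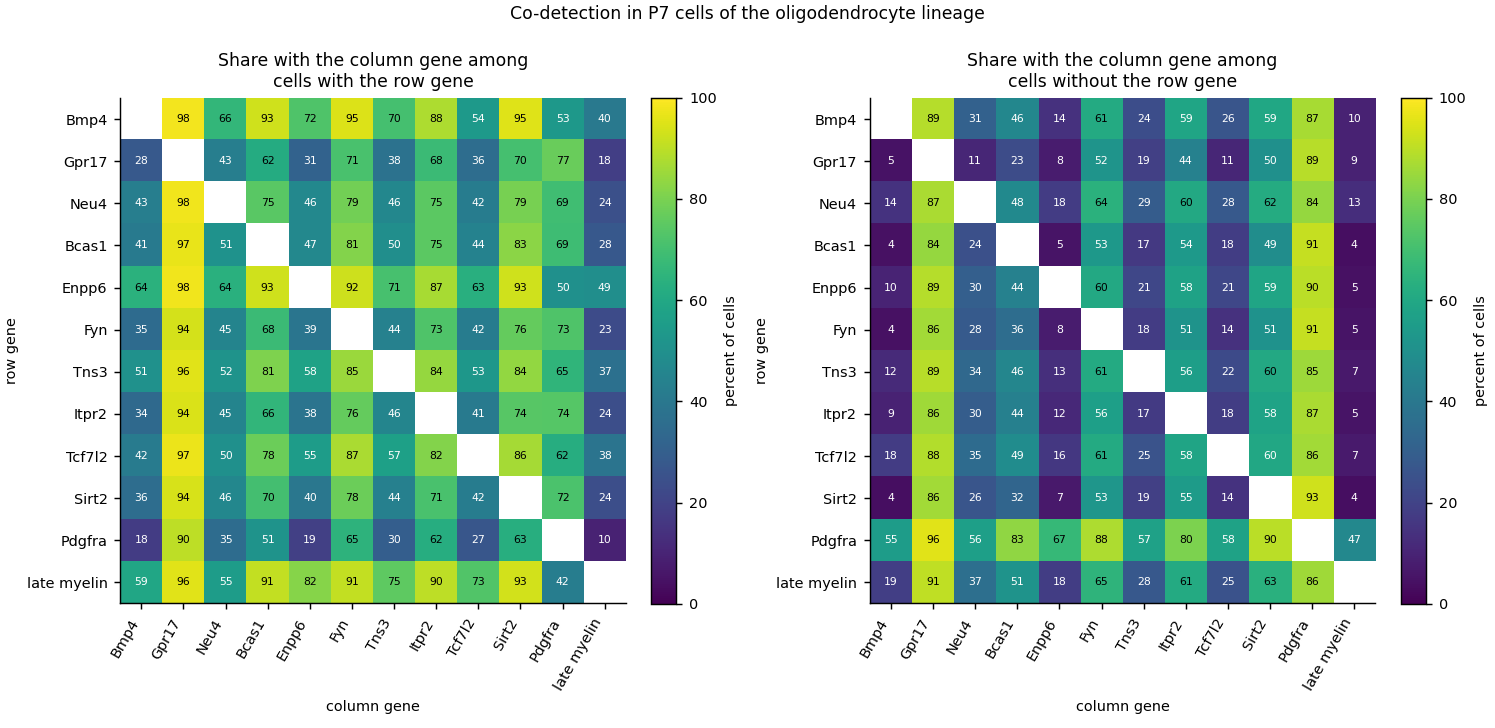
Percent of P7 lineage cells with a molecule of the column gene, among cells with (left) and without (right) the row gene. Among the 10 genes every left value is above the right one, and for Pdgfra the order is turned, as for Enpp6 rows with 50.2% left and 89.8% right.

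Over the 16 assigned P7 chips, the genes most like each member in level were found by Pearson's correlation. It was taken on log2(CPM + 50) among 4611 genes. It is a description, since the chips differ in line, depth and mix of cells, which were not separated. Enpp6 was most like Plxnb3 (r = 0.970) and the transcript 9630013A20Rik (0.965), and stayed at 0.954 or above without chip 23. Sirt2 and Bcas1 were among each other's nearest genes (0.968), with Cnp, a myelin enzyme, beside Sirt2 at 0.976. Tns3 and Itpr2 were also a pair (0.944, and 0.965 without chip 23). Bmp4 was most like Lrrc42 (0.885), Tcp1 (0.883) and Myrf (0.845), the last a transcription factor of myelin genes. Tcf7l2 was most like Ppp1r16b (0.951) and Fyn like Wasf1 (0.952). The correlation of Gpr17 with Rtn1, its nearest gene, was 0.984 with chip 23 and 0.669 without it, and that of Neu4 with Psenen was 0.947 and 0.817.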

How the data were processed

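The deposited values are counts of molecules (UMIs) per gene symbol and well, made by the authors from STRT-seq reads and not normalized; the build is mm10 per the submitters' processing notes, while aligner and annotation were not given in the sources used here. Spike-in, mitochondrial and marker rows (1.63%, 7.40% and 0.00693% of molecules) were left out. Of 2496 wells, 1514 held at least 1000 molecules. Wells with 3 or more molecules, spread over 2 or more genes, of each cell type of a fixed pair (104) were set aside as doublets, 72 of them from txE12.5 chips, which left 1410 cells, 1335 of them on the 25 assigned chips. Chip 9 was put in no group, since its label (P7 spinal cord) goes against its own name and experiment number (E13.5 spinal cord). The chip number is the replicate number. An assigned chip held 56369 to 543779 molecules.

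Molecules were summed per chip and tested with edgeR 4.0.16 (quasi-likelihood test, TMM, filterByExpr, Benjamini-Hochberg over all genes tested, threshold 0.05) in R 4.3.3; SE is the size of the log2 fold change over the root of F. DESeq2 1.42.0, other filters and depths, other chips, and lineage cells only were alternatives. Of the 10 comparisons, 9 were tested on simulated data, all but the interaction. Cells were clustered without the 10 genes (scanpy 1.11.5, Leiden, Python 3.11.15); names came from marker lists in 2 steps, the second within the lineage, which were settled after the clusters had been seen. Shares were repeated with cells thinned to 1000 molecules. A cluster of 44 cells led by Ttr stayed unnamed.

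The members and lists were chosen with earlier results of these data known. Genes named are the 10 members, Pdgfra, at most the 3 genes of smallest adjusted p of a list, and the 3 most correlated genes of a member over P7 chips with a mean of at least 50 CPM. Gene positions are from GENCODE M21 on GRCm38 and promoters from RefSeq on GRCm38.p6.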

Additional observations from a re-analysis of the deposited data

Results flagged for a closer look

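A single chip far from the rest was looked for in 28 tests, each of 1 gene in 1 group (size limits 4 to 10 chips). Of these tests 6 found one, and chance alone marks about 1 in 20. On chip 23, labelled P7 spinal cord, Enpp6, Gpr17 and Sirt2 were at 0 CPM and Itpr2 at 71.0 CPM, far below the other 4 chips of the group. Of its 14 cells 13 were VLMC-like. On chip 24 of E13.5 brain Itpr2 stood at 74.4 CPM, where the other 5 chips had at most 12.9. On chip 3 of E13.5 brain Tcf7l2 stood at 290 CPM, where the other 5 had at most 139.

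Chip 9 entered no comparison, and 7 of the 10 genes had a signal there above 3 molecules. Its 75 cells held 720963 molecules, with Bmp4 at 40.2 CPM, Bcas1 at 9.71, Fyn at 182, Tns3 at 36.1, Itpr2 at 36.1, Tcf7l2 at 23.6 and Sirt2 at 58.3. Neu4 and Enpp6 were at 0 there, as on all 9 chips labelled E13.5, and Gpr17 was at 1.39 CPM.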

How the results depend on the processing

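The counts of members past the threshold, 20 in all over 10 comparisons and both directions, stayed within 1.5 times in 300 of 332 alternatives. A count of 0 that stayed at 0 is among these, and most of the 20 were 0 in the main fit. The share therefore says little about how stable the calls are. When chips were left out in turn, the members higher at P7 numbered 8 to 9 in brain and 7 to 10 in spinal cord (7 without E13.5 chip 8), and those higher in P7 spinal cord 0 to 6 and lower 0 to 1 (without chip 23). The ranges were 0 to 1 lower for E13.5 spinal cord, 0 to 1 higher for txE12.5, 0 to 1 for the interaction, 0 to 1 lower within OPC-like cells, and 0 to 1 higher and 0 to 3 lower within COP-like and NFOL-like cells. With chip 9 added to P7 spinal cord as labelled, 0 members passed for stage there (adjusted p from 0.262 to 0.265), with log2 changes still from 2.71 to 10.29. With traced brain added to P7 brain, 1 passed, and with lineage cells only 7 were higher and 1 lower. With no filter, E13.5 spinal cord gave 2 lower, txE12.5 gave 3 higher, traced brain 1 lower, the interaction 1, OPC-like cells 1 higher, and COP-like and NFOL-like cells 1 higher and 1 lower. The interaction gave 1 with DESeq2 and 1 in the fit of all 6 groups. Within OPC-like cells DESeq2, cells of at least 2000 molecules and the 6-group fit gave 0 lower. Naming clusters in a single step, an alternative added after seeing the data like the lineage-cell sums, gave 1 higher and 0 lower in OPC-like cells and 0 lower in COP-like and NFOL-like cells. The cause was not tested.

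Directions turned in 10 of 861 alternatives for single members. Tcf7l2 for stage in brain went to 0.13 on chips of the older column style and ran from -0.66 to 0.30 with chips left out. Bmp4 for P7 region (0.093) went to -0.037 with deeper cells, -0.004 with doublets kept, -0.11 with chip 9, and -0.29 to 0.63 with chips left out. Gpr17 for tracing went from -0.03 to 0.51, and Neu4 within COP-like and NFOL-like cells to 0.34 under single-step naming.

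Keeping doublets and adding chip 9 were not run for comparisons within clusters, since those cells were not clustered. Where 1 chip was left in a group, it was assumed to vary like the others. No paired analysis was possible because chip numbers are unique to a chip. In simulated counts edgeR recovered 41.5% of genes changed by a log2 fold of 2 for stage in brain, 73.0% for stage in spinal cord, 45.0% for P7 region, 85.5% for P7 region in OPC-like cells and 67.5% in COP-like and NFOL-like cells, and 87.0% for tracing.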
